A study of Drosophila melanogaster with 4 samples.

Results

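Cdep and spok are 2 genes of chromosome arm 3R that hold the highest-scoring peaks of the RNA helicase Maleless (MLE) in male Drosophila melanogaster embryos with normal maternal CLAMP. They were chosen by measured values, namely the peak scores of both control lists, from 17684 RefSeq genes on the X and the autosome arms. Binding had been mapped by CUT&RUN, which releases DNA next to an antibody-bound protein with a tethered nuclease, using a rat antibody against MLE on whole embryos. Mothers carried the germline driver MTD-GAL4 with RNAi against GFP (control) or with RNAi against CLAMP, and meiotic drive stocks were used in the crosses to obtain males. Depletion therefore concerned the maternal supply of CLAMP, and the level of CLAMP was not measured in these files. Each genotype was collected at 0-2 h, before the zygotic genome takes over from maternal products, and at 2-4 h. The titles and the design text name the stage of the 2-4 h collection differently, so the age in hours is used here, with early for 0-2 h and late for 2-4 h.

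Embryos of multiple egg-layings were combined, and the design text speaks of 2 replicates per group, but single replicates were not analysed here. Each of the 4 groups had 1 list of peaks, so no difference between groups could be set against replicate spread, and no p-value is given. The lists held from 15890 (late CLAMP RNAi) to 28246 (early control) peaks on 6 chromosome arms. Read depth is not known from these files. The score is the authors' whole number for each peak and is used only to order and describe peaks within a list. Late CLAMP RNAi stood apart: it was the shortest list, and 36.6% of its peaks had the lowest width of 200 bp, against 12.4% to 21.9% in the other lists. Results on that list come with this difference, whose part in them was not tested.

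MLE unwinds RNA and belongs to the male-specific lethal (MSL) complex, which raises transcription of the single male X. CLAMP is a zinc finger protein that binds GA-rich repeats and helps bring the MSL complex to the X. Cdep encodes a protein with a FERM domain, which links membranes to the cytoskeleton, and a guanine nucleotide exchange factor domain, which activates small GTPases. Its mammalian relatives FARP1 and FARP2 are known from dendrite and synapse growth. The gene spok (spookier) encodes the cytochrome P450 Cyp307a2, which acts in an early step of ecdysteroid hormone synthesis in the larval prothoracic gland, while its relative spo serves the embryo. Neither gene lies on the X.

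Cdep (Dmel_CG44193) spans chr3R:4910552-4945576 of dm6, a length of 35025 bp, with 4 RefSeq transcripts. It is closely flanked, by Gnf1 at a gap of 470 bp and lncRNA:CR45188 at a gap of 501 bp, and 8 other genes reach into the 20 kb on either side. The gene spok (Dmel_CG41624) spans chr3R:3322810-3354486, a length of 31677 bp, with 1 transcript, and 0 other genes reach into its 20 kb flanks. Its nearest neighbours, Pzl and Parp1, lie 59227 and 106864 bp away. Cdep and spok are 1.56 Mb apart. The gene table gives spans without strand or exons, so places are stated from the lower coordinate of a gene, and whether a peak is exonic or intronic was not analysed here.

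The strongest site of the 2 genes was the same in each list and was a single peak far above its surroundings. In Cdep it lay at chr3R:4919031-4919411, 8.67 kb from the lower gene end, or 24.8% of the way along the span. Its score was 1581088 in early control, 1915432 in early CLAMP RNAi, 2999688 in late control and 47433 in late CLAMP RNAi. It ranked 1 in the first 3 of these lists and 4 in late CLAMP RNAi, where it was at or above 99.98% of peaks and still ranked 1 on 3R.

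In spok the strongest peak lay 22.1 kb from the lower gene end, or 69.7% of the way along the span. It ran from 3344683 to 3345092 in early control and from 3344682 to 3345092 in early CLAMP RNAi. At 2-4 h it ran from 3344681 to 3345093 in control and from 3344693 to 3345098 in CLAMP RNAi. Its score was 254524 in early control, 251753 in early CLAMP RNAi, 434924 in late control and 10366 in late CLAMP RNAi. It ranked 2 in the first 3 lists and 18 in late CLAMP RNAi, where it was at or above 99.89% of peaks and ranked 4 on 3R. The control values chose the genes and are a description. The CLAMP RNAi values were not part of the choice, although the wish for shared sites was.

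**Figure D1:**
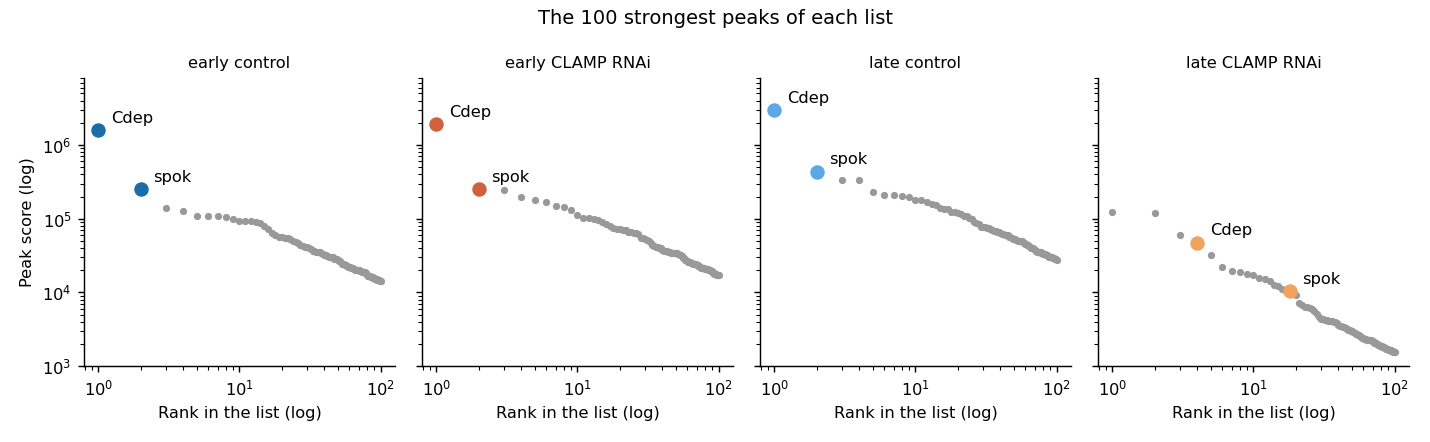
Score (log axis) against rank in the list (log axis) for the 100 strongest peaks of each of the 4 lists, with Cdep and spok coloured and other peaks in grey. Cdep stands clear of the other peaks in 3 lists and has rank 4, with a score of 47433, in late CLAMP RNAi.

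Cdep exceeded every other site by a wide margin in 3 of the lists, whereas spok had close competitors. The Cdep score was 6.21 times that of spok, the next peak, in early control, 7.61 times in early CLAMP RNAi and 6.90 times in late control. In late CLAMP RNAi it was 4.58 times that of spok, but 0.783 times the peak of rank 3. Set against the median score of its own list, the Cdep peak was 33286, 31400.5, 43474 and 1482 times higher in early control, early CLAMP RNAi, late control and late CLAMP RNAi. The lead of spok over the peak below it was 1.83 times in early control, 1.01 times in early CLAMP RNAi, 1.28 times in late control and 1.01 times in late CLAMP RNAi. At the edge of the choice, the peak of rank 3 had a score of 138828 in early control, in gpp, which encodes the histone H3K79 methyltransferase. In late control it had 340109 and lay in Glg1, where the antisense gene asRNA:CR43933 overlaps.

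In late CLAMP RNAi, other peaks ranked ahead of the members. The 3 peaks above Cdep, which ranked from 49 to 225 in the other lists, lay in Rok, which encodes a protein kinase, in lncRNA:CR44999 and in Pka-R2, a regulatory subunit of protein kinase A. The first and second are on the X and the third on 2R. Rok scored 124978 there and ranked 120 in early control, 82 in early CLAMP RNAi and 49 in late control. Besides Cdep, 16 regions ranked above spok, 7 of them on the X, and all 16 had a peak in each of the other 3 lists. Their ranks in those lists ranged from 7 to 3006. The order of the strongest sites thus differed in late CLAMP RNAi, the shortest list. Whether genotype, depth or another property of that list goes with this order cannot be told apart.

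The Cdep peak had the same first and last base in the 4 lists, with a width of 381 bp in each. Regions with exactly 1 peak of each list numbered 7631, and 282 of them, 3.70%, had identical ends in the 4 lists. Of these 282, 219 were 381 bp wide like Cdep. Identical ends were found in 14 of 33 regions that ranked 100 or better in every list. A width of 381 bp was the median of the strongest 1% of peaks in each list, and 26.7% to 35.8% of those peaks had exactly this width. The spok peak was slightly wider, with 410 bp in early control, 411 bp in early CLAMP RNAi, 413 bp in late control and 406 bp in late CLAMP RNAi. Its starts differed by up to 12 bp and its ends by up to 6 bp. At both genes the strongest peak was listed once, that is, the caller had not split it. Most peaks were listed once. Those listed more than once made up 7.90% in early control, 6.38% in early CLAMP RNAi, 9.59% in late control and 0.403% in late CLAMP RNAi.

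Around these peaks MLE sites were much weaker, and sparser than over 3R as a whole. At spok they were nevertheless denser than within 500000 bp of the gene, as given below. Within 20 kb of Cdep there were 10 peaks in early control, 7 in early CLAMP RNAi, 7 in late control and 5 in late CLAMP RNAi. Within 20 kb of spok there were 7 in early control, 8 in early CLAMP RNAi, 8 in late control and 6 in late CLAMP RNAi. The gene spans themselves held 6, 4, 4 and 3 peaks in Cdep and 3, 2, 2 and 2 in spok, in the same order of lists.

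These numbers make 1.33, 0.933, 0.933 and 0.666 peaks per 10 kb in the Cdep window. In the spok window they make 0.977, 1.12, 1.12 and 0.837. The whole arm 3R had 2.06, 1.59, 1.80 and 1.08 peaks per 10 kb, so both windows were below the arm in every list. Taking 500000 bp on either side of the gene gave 1.33, 1.13, 1.22 and 0.850 peaks per 10 kb at Cdep and 0.591, 0.494, 0.630 and 0.456 at spok. The 20 kb window of spok was thus denser than its wider surroundings in each list, and that of Cdep was not. Within 20 kb, the second highest peak of Cdep had a score of 952 in early control, 608 in early CLAMP RNAi, 687 in late control and 160 in late CLAMP RNAi. That is 1661, 3150, 4366 and 296 times lower than the strongest peak of the same list. For spok these second scores were 390, 179, 309 and 50, or 653, 1406, 1408 and 207 times lower. The genes were chosen for the highest control scores, so large ratios to other peaks follow from the choice in the control lists. Within their lists the second peaks were not weak. Their percentiles were 96.1, 92.4, 91.0 and 93.7 at Cdep and 91.9, 80.2, 83.3 and 79.1 at spok.

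**Figure D2:**
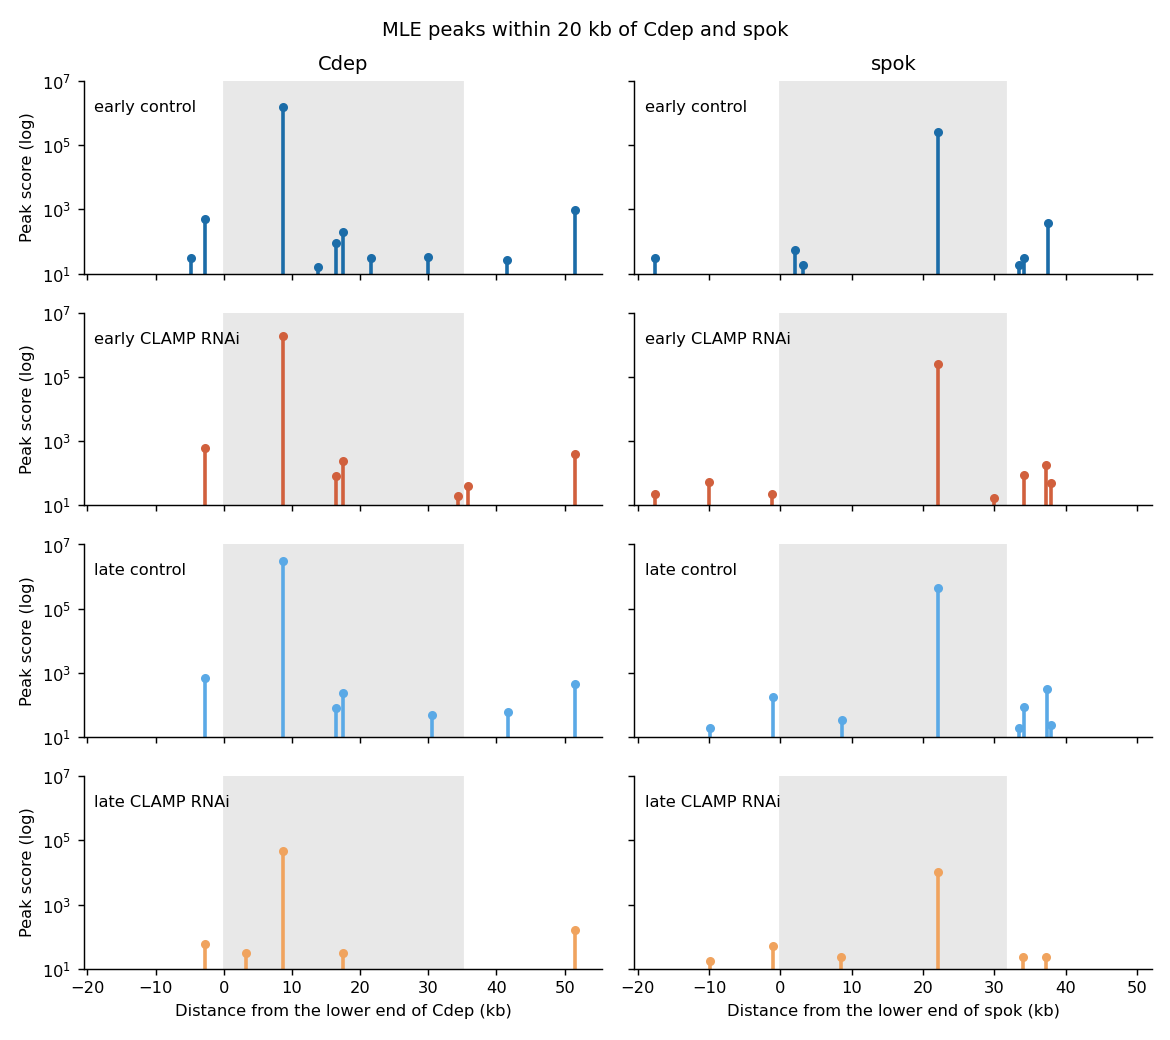
Peak scores (log axis) against the distance of the peak midpoint from the lower end of the gene (kb) for Cdep (left) and spok (right), 1 row per list, with the gene span shaded. In each list 1 peak per gene, at 8.67 kb in Cdep and 22.1 kb in spok, rises at least 207 times above the others.

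The gaps between the strongest site and the nearest peak on either side ran from 4903 to 22861 bp. The whole arm 3R had 2.06, 1.59, 1.80 and 1.08 peaks per 10 kb in the 4 lists, so gaps of several kb are ordinary there. Whether the gaps at Cdep and spok were longer than usual was not tested. At Cdep the nearest peak on the lower side was 10985 bp away in early control, early CLAMP RNAi and late control, where it lay in Gnf1, and 5119 bp away in late CLAMP RNAi. On the upper side the gap was 4903, 7420, 7447 and 8423 bp. At spok the gaps on the lower side were 18665, 22861, 13046 and 13245 bp, and those on the upper side 10966, 7565, 11070 and 11691 bp. At spok no other peak up to 100000 bp from the gene came near the score of the strongest peak. The highest other score there was 390 in early control, 5444 bp from the span and so inside the 20 kb limit. In the other lists this peak lay outside the limit, 40307 to 40321 bp above the gene. It scored 235 in early CLAMP RNAi, 490 in late control and 80 in late CLAMP RNAi. These scores exceeded the second scores within 20 kb, which were 179, 309 and 50. The nearest peaks beyond 20 kb had scores of 13 to 235 and began 23096 bp or more from the span. At Cdep a neighbour stronger than the second peak of the window lay outside the limit in each list, 42446 or 42447 bp below the gene. Its score was 13095 in early control (at or above 99.62% of peaks), 31567 in early CLAMP RNAi (99.76%), 34449 in late control (99.69%) and 1101 in late CLAMP RNAi (99.11%). A still stronger peak lay 108172 or 108174 bp below the gene. It scored 104557 in early control, 145349 in early CLAMP RNAi, 211028 in late control and 1662 in late CLAMP RNAi.

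Among the weaker sites around Cdep, 3 recurred in each list. The first lay in Gnf1, the gene of the large subunit of the replication factor C clamp loader, 2506 bp below Cdep. Its score was 494 in early control (93.4th percentile), 608 in early CLAMP RNAi (92.4), 687 in late control (91.0) and 60 in late CLAMP RNAi (83.1). It ended at base 4908045 in the 4 lists. The second lay inside Cdep, from 4927834 to 4928217 over the lists, with scores of 199, 242, 241 and 32 and percentiles of 85.9, 84.3, 80.0 and 61.9 in the same order. The third lay between Jhbp2 and Jhbp1, which are named for juvenile hormone binding proteins, from 4961860 to 4962243. Its scores were 952, 400, 461 and 160, and its percentiles 96.1, 89.6, 87.9 and 93.7. Of the 3, the Gnf1 site and the site inside Cdep had their lowest percentile in late CLAMP RNAi, and the site between the Jhbp genes did not.

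A further site inside Cdep, from 4926832 to 4927234, was found in each list but late CLAMP RNAi. Its score was 92 in early control, 80 in early CLAMP RNAi and 80 in late control, at percentiles of 73.4, 62.0 and 56.4. A site in Ubc6, which encodes a ubiquitin-conjugating enzyme, was found in both control lists only, with scores of 26 at 0-2 h (percentile 24.0) and 62 at 2-4 h (47.2). The other 8 of 14 sites around Cdep were each found in 1 list, 4 of them in early control. None of these exceeded the 61.9th percentile or a width of 250 bp.

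Around spok, the recurring weaker sites lay above the upper end of the gene, where no gene is annotated. A broad site from 3359753 to 3360864 had scores of 390 in early control (percentile 91.9), 179 in early CLAMP RNAi (80.2), 309 in late control (83.3) and 24 in late CLAMP RNAi (41.4). Its widest peak in each list measured 919, 688, 775 and 200 bp, so it was called at the lowest width in late CLAMP RNAi. Both early CLAMP RNAi and late control held 2 separate peaks there. The adjacent site from 3356785 to 3357233 had scores of 30, 90, 84 and 24, at percentiles of 29.7, 65.7, 58.1 and 41.4.

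The remaining spok sites were each found in fewer lists. A site just below the gene, from 3321573 to 3321986, was found in each list but early control. Its score was 23 in early CLAMP RNAi (percentile 11.4), 179 in late control (75.2) and 50 in late CLAMP RNAi (79.1). Another at 3312647 to 3313016 was likewise found in each list but early control, with scores of 52, 19 and 17. A site inside spok, from 3331248 to 3331634, was found in both late lists only, with 33 in control and 24 in CLAMP RNAi. A site from 3305148 to 3305354 was found in both early lists only, with 30 in control and 23 in CLAMP RNAi. One from 3356059 to 3356476 was found in both control lists only, with a score of 19 in each. The other 3 of 11 sites lay inside spok and were each found in 1 list, with scores of 55 and 19 in early control and 17 in early CLAMP RNAi, all at the lowest width of 200 bp.

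**Figure D3:**
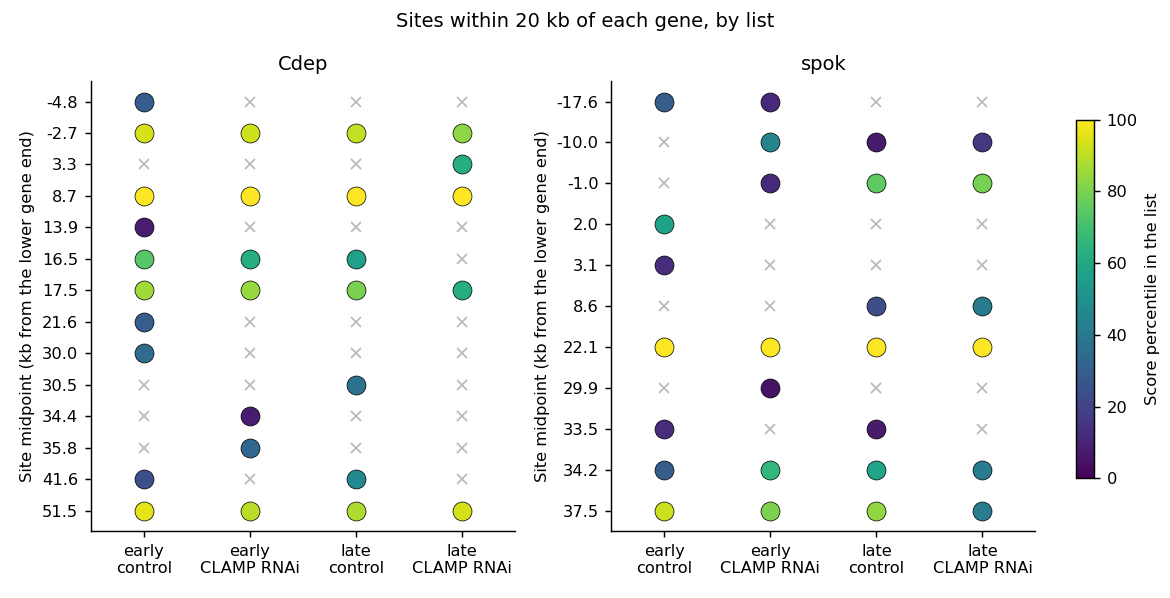
Sites made by merging overlapping peaks of the 4 lists (rows, by distance of the midpoint from the lower gene end in kb) against list (columns), for Cdep (left) and spok (right). Circle colour gives the score percentile in the list and a cross marks no peak, and 7 of the 25 sites have a circle in each column.

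Merging the 4 lists gave 14 sites around Cdep and 11 around spok. Each list held a peak at 7 of these 25 sites. Without the strongest site of each gene this was 5 of 23, beside 8359 of 42156 regions, or 19.8%, over the 6 arms. Both control lists but neither CLAMP RNAi list held a peak at 2 sites, and both CLAMP RNAi lists but neither control list at 0 sites. Over the 42156 regions these patterns made up 6.38% and 0.880%, so 2 and 0 of 25 sites show nothing particular to the windows. At 23 sites, the share found in each list was close to the background share.

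The weaker peaks were also compared between genotypes at each age, leaving out the strongest peak of each gene. At 0-2 h, 7 of 15 control peaks in the 2 windows, or 46.7%, overlapped a CLAMP RNAi peak by 1 base or more (exact 95% interval 21.3% to 73.4%), where the share over all early control peaks was 58.1%. At 2-4 h, 8 of 13 control peaks, or 61.5% (31.6% to 86.1%), had a CLAMP RNAi peak, where the background share was 40.6%. In the other direction, 8 of 13 early CLAMP RNAi peaks, or 61.5% (31.6% to 86.1%), had a control peak, against 74.4% over the list. Of late CLAMP RNAi peaks, 8 of 9, or 88.9% (51.8% to 99.7%), had a control peak, against 65.0%. Each interval covers counting error over peaks only and holds the background share.

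Between ages, 8 of 15 weaker early control peaks, or 53.3% (26.6% to 78.7%), had a late control peak, and the background share was 64.8%. In reverse, 9 of 13 late control peaks, or 69.2% (38.6% to 90.9%), had a early control peak, against 74.0%. With CLAMP RNAi, 7 of 13 peaks at 0-2 h, or 53.8% (25.1% to 80.8%), had a 2-4 h peak, against 42.5%. Of the 9 at 2-4 h, 7, or 77.8% (39.99% to 97.2%), had a 0-2 h peak, against 60.5%. The windows were again not distinguishable from the lists as a whole at these numbers.

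Which sites ranked most like Cdep and spok was asked by the worst rank that a merged region held in any of the 4 lists. Cdep came first, with a worst rank of 4, and spok followed at place 5, with 18. Between them were 3 regions. The region in cno, which encodes the junction protein Canoe, ranked 7 in early control, 10 in early CLAMP RNAi, 8 in late control and 11 in late CLAMP RNAi. It lies at chr3R:5182883-5183263 and has the width of 381 bp and the identical ends of the Cdep peak. The region nearest to CG10104, 1786 bp from it on 2R, ranked 14, 9, 7 and 13. The region shared by Mur2B and br on the X, the latter an ecdysone response gene, ranked 13, 14, 13 and 10.

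After spok came a region on 3R with Or98b as nearest gene, 20130 bp away, with ranks of 12, 15, 11 and 19. The region in up, the troponin T gene, on the X ranked 15, 19, 15 and 21, and one near CG12115 on the X ranked 6, 23, 14 and 24. The ranks of spok ranged over 16 places. Those of the regions at cno, CG10104, Mur2B, Or98b and up ranged over 4 to 8 places, and those of the region near CG12115 over 18. These regions were chosen by their worst rank, so regions that fell far in any list were left out and small ranges follow from the choice. The gpp region ranked 3, 4 and 4 in early control, early CLAMP RNAi and late control, and 38 in late CLAMP RNAi. The Glg1 region ranked 5, 5 and 3 in those lists and 415 in late CLAMP RNAi. Likeness of rank over 4 lists says nothing of shared function.

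**Figure D4:**
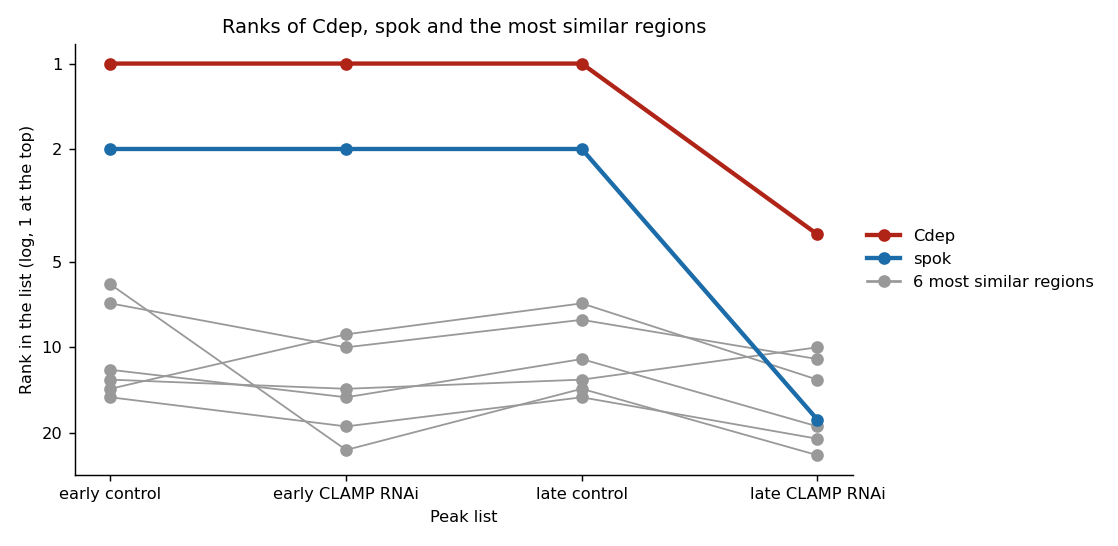
Rank in each of the 4 peak lists (log axis, rank 1 at the top) for Cdep, spok and the 6 regions with the lowest worst rank, drawn in grey; lines join the same region across lists. Cdep goes from 1 to 4 and spok from 2 to 18 in late CLAMP RNAi, while the grey lines lie between ranks 6 and 24. Choosing the grey regions by worst rank left out regions that fell far in any list.

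No other gene of ecdysteroid synthesis on the list held a peak above percentile 85.0, reached by nvd in early control. Of 9 such genes besides spok, 2 held a peak in early control, 3 in early CLAMP RNAi, 2 in late control and 3 in late CLAMP RNAi. Over all genes, 38.4%, 31.5%, 35.7% and 25.1% held one in these lists. The gene nvd, whose Rieske oxygenase acts on cholesterol at the start of the pathway, spans 76790 bp and held 8, 4, 7 and 4 peaks. Its best peak had a score of 184 in early control (percentile 85.0), 179 in early CLAMP RNAi (80.2), 190 in late control (76.2) and 32 in late CLAMP RNAi (61.9). The P450 gene shd, for the last hydroxylation, held 2, 1, 1 and 1 peaks, none above the 67.3rd percentile. The P450 genes phm and dib each held 1 peak in a single CLAMP RNAi list, phm at 0-2 h with a score of 56 and dib at 2-4 h with 32. The genes spo, sro, nobo, Cyp6t3 and sad held 0 peaks in the 4 lists. Long genes can hold more peaks: of 206 genes of 30 to 40 kb, the size of spok and Cdep, 98.1% to 100% had a peak.

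Of 11 FERM domain genes besides Cdep, 6 held a peak in early control, 6 in early CLAMP RNAi, 8 in late control and 5 in late CLAMP RNAi. Over all genes the shares were 38.4%, 31.5%, 35.7% and 25.1%, lower than that of the FERM genes in each list. The highest in each list was in Moe, the moesin gene on the X. Its best score was 376 in early control (percentile 91.6), 492 in early CLAMP RNAi (91.1), 586 in late control (89.8) and 113 in late CLAMP RNAi (91.1). Mer, the merlin gene, held 1 weak peak in early control, with a score of 55, and Fit1 and Fit2, the kindlin genes, held 0 peaks in the 4 lists. The talin gene rhea held 7, 9, 8 and 2 peaks, the best of them at percentiles of 82.3, 77.7, 74.7 and 41.4. With a list of genes this short and of mixed length, nothing particular to the family follows from these counts.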

How the data were processed

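MLE was profiled by CUT&RUN in whole male embryos, and 4 peak lists, 1 per group, were used. Per the submitters' processing notes, the tools were FastQC, Trim Galore, BWA, Bowtie2, SAMtools, Picard 2.20.2 and MACS2 with the build dm6, without their settings. Per the peak names in the deposited files, each list came from 1 sorted alignment without duplicates. Whether replicates were pooled, whether a control library was used and what the score means are not given in the sources used here. The score is the authors' deposited whole number, at least 13 in each list, and is not comparable between lists. Read depth per list is unknown.

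Intervals listed several times were collapsed to 1 with the highest score. A peak's percentile is the share of peaks in its list, on 6 arms, with a score no higher. Coordinates are 1-based. A peak belonged to a gene when it shared 1 base with the gene's span in the RefSeq table of Release 6, which is dm6. Sites and regions are peaks of the 4 lists merged where they overlap. Shares carry exact Clopper-Pearson 95% intervals. The overlap step was tested on simulated lists. Named genes were Cdep, spok, genes within 20 kb, the 6 most similar regions by worst rank, and 2 lists of related genes, phm being matched as phtm. A further list of related genes is not reported here. The peaks that outranked the members were named after their values were seen. Members and lists were chosen with earlier results of these data known. Alternatives varied the window, the score minimum, repeated rows, the reference for percentiles, the overlap and the list length. Python 3.11.15, pandas 2.3.3, numpy 2.4.6, scipy 1.17.1 and matplotlib 3.10.9 were used.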

Additional observations from a re-analysis of the deposited data

Results flagged for a closer look

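For spok, 3 measures differed between CLAMP RNAi and control in opposite directions at the 2 ages. The number of peaks within 20 kb went from 7 to 8 at 0-2 h and from 8 to 6 at 2-4 h, so the difference at 2-4 h minus that at 0-2 h was -3 peaks. The width of the strongest peak went from 410 to 411 bp at 0-2 h and from 413 to 406 bp at 2-4 h, a difference of -8 bp. Peaks of the lowest width, 200 bp, went from 3 to 2 at 0-2 h and from 1 to 4 at 2-4 h, a difference of 4 peaks. With 1 list per group, none of these differences between ages was tested. Over the whole lists, the median width was 364 and 366 bp at 0-2 h and 375 and 245 bp at 2-4 h in control and CLAMP RNAi, and the part of this in the spok values was not tested.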

How the results depend on the processing

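Of 136 values under the other settings, 116 stayed within 1.5 times the count, or within the exact 95% interval of the share or percentile, and 20 moved. Counting each listed row, midpoints in place of any overlap, windows of 10 kb and an overlap of 50% of both peaks moved none of the values by this rule. The 50% overlap changed no Cdep share but lowered several spok shares. Early CLAMP RNAi peaks with a late CLAMP RNAi peak fell from 62.5% to 37.5%. Late CLAMP RNAi peaks with a late control peak fell from 100% to 66.7%. The intervals over so few peaks are wide, so the rule could hardly call these moved. A score minimum of 50 left within 20 kb 5 peaks at Cdep in early control and 3 in late CLAMP RNAi, and at spok 3, 4, 4 and 2 in early control, early CLAMP RNAi, late control and late CLAMP RNAi. In the span it left 3 peaks at Cdep in early control and 1 in late CLAMP RNAi, and 1 at spok in each list but early control, because weak peaks were removed. A window of 50 kb held 21, 16, 16 and 11 peaks at Cdep and 13 at spok in early control, being longer. Among peaks of 3R alone, Cdep was at percentile 100 in late CLAMP RNAi. With lists cut to 15890 peaks, 3 shares rose to 100%. They were Cdep early control peaks found in early CLAMP RNAi (from 50%) and in late control (from 60%), and spok late control peaks found in late CLAMP RNAi (from 75%). Other shares rose or fell without moving by the rule. Among the falls were spok late CLAMP RNAi peaks found in late control (from 100% to 66.7%) and in early CLAMP RNAi (from 83.3% to 66.7%). The spok late control peaks found in early control fell from 62.5% to 50%. These shares are per gene and include the strongest peak, unlike the pooled shares of weaker peaks given in the Results. No paired analysis was possible because each group has 1 list. No share of peaks in the 20 kb windows rests on more than 17 peaks, and none in the 50 kb windows on more than 21. Read depth, which limits weak peaks, is unknown.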

Other observations

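The stretch of 3R around the 2 genes held several of the strongest MLE sites in 3 of the lists. From 2 Mb below spok to 2 Mb above Cdep lay 5 of the 10 strongest peaks in early control, in early CLAMP RNAi and in late control, Cdep and spok included, and 1 of 10 in late CLAMP RNAi. The same stretch held 2.24%, 2.21%, 2.36% and 2.32% of all peaks. Among the 100 strongest it held 6, 7, 8 and 6. Besides the members, the peaks in cno and in gpp and the peak 108172 or 108174 bp below Cdep lie there. The limit of 2 Mb was chosen after the positions were seen, and the count is a description.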
